A study of Rattus norvegicus with 6 samples.

Results

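Transcript levels in the trigeminal nerve of BDIV rats, an inbred strain resistant to nerve tumours induced by ethylnitrosourea, were compared with those of BDIX rats, an inbred strain that is susceptible. The comparison took the 4 arrays whose signal columns begin with the strain name BDIV or BDIX, of 6 arrays in all. The BDIV group was 1 pool of nerves from males and 1 from females, and the BDIX group was likewise 1 male and 1 female pool. All rats were untreated and 85 days old, so the comparison asks how the nerve of the resistant strain differed before any carcinogen was given. The other 2 arrays held male and female pools of the congenic strain BDIX.BDIV-Mss4a, which carries a BDIV segment on the BDIX background. They entered the quantile normalisation, the estimate of the spread and of the sex effect, and the choice of probes to test. Among those probes, 52 were detected on none of the 4 BDIV and BDIX arrays. Each strain and sex was measured on 1 array, and how many rats went into a pool is not stated in the labels.

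The trigeminal nerve carries the sensory axons of the face, whose cell bodies lie in the trigeminal ganglion, together with motor axons to the jaw muscles. Each large axon is wrapped by Schwann cells, which need neuregulin from the axon acting on ErbB receptors to survive and to form myelin, and which lay down a basal lamina inside a collagen-rich sheath of fibroblasts and perineurial cells. Ethylnitrosourea alkylates DNA, and in susceptible rats its nerve tumours are malignant schwannomas, which arise from the Schwann cell lineage.

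Levels are given as normalised log2 intensity, with the male pool before the female pool of each strain. A difference is BDIV minus BDIX on the log2 scale with its standard error from a limma fit of strain and sex (2 pools per strain), and a probe is called at a Benjamini-Hochberg adjusted p under 0.05 over the 10484 probes tested. Detected probes, those with a detection p under 0.01, numbered 9865 and 10040 on the BDIV arrays, against 9644 and 10174 on the BDIX arrays. The congenic male and female arrays had fewer, 8685 and 8840. Intensities of different probes are not comparable, so levels are compared only between pools. Where the pools of the strains are said not to overlap, this describes genes already chosen by p or by size. It adds no test, and the share of all probes without overlap was not counted. The p-values and standard errors reflect the scatter of 6 pools and not of single rats. Without replicates of a strain and sex, this scatter is how far the difference between male and female pools varied among strains. As no hybridisation batch is labelled, batch and strain cannot be told apart.

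The 2 strains differed widely. Of the probes tested, 27.3% were called, 13.6% higher in BDIV and 13.6% lower, and 15.4% were called with a difference over 2-fold. These were 1429 probes higher and 1431 lower, which cover 2182 of the 7781 named genes measured, and the over 2-fold group held 932 higher and 685 lower. With arrays scaled to one median in place of quantile normalisation, 63.1% of the 3421 calls were higher, where the quantile-normalised values gave 1429 of 2860, and the median over all probes was 0.08, where it was -0.03. The share called was lowest among dim probes, at 9.46% higher and 6.37% lower of the 2621 probes of lowest mean level, whereas 15.4% higher and 16.6% lower were called among the 2621 brightest.

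The male pair and the female pair, which share no array, were set side by side as a description. BDIV minus BDIX had the same sign in both pairs for 7993 of 10484 probes (76.2%), and Pearson's r across probes was 0.744. Both pairs differed by over 2-fold in the same direction for 628 probes higher and 387 lower in BDIV, and in opposite directions for 4. Over 4-fold, the shared counts were 52 higher and 25 lower. The male and female pools lay closest together in BDIV, where their log2 values differed with an SD of 0.22 across probes, against 0.52 in BDIX.

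**Figure D1:**
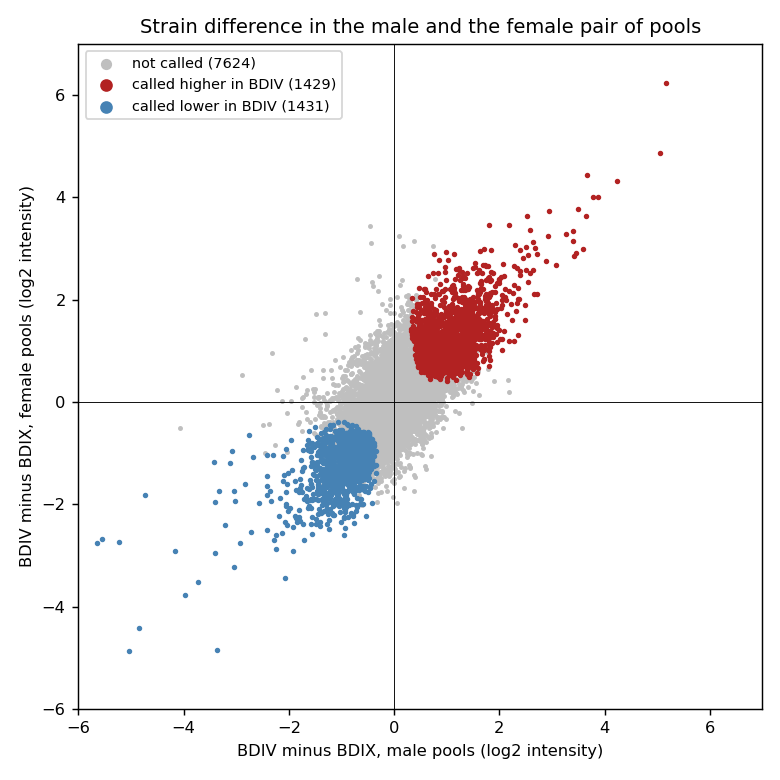
Each point is 1 of 10484 probes, with BDIV minus BDIX in log2 intensity for the male pools on the x axis and for the female pools on the y axis; red points were called higher in BDIV (1429), blue points lower (1431) and grey points were not called (7624). Called probes lie to the upper right and the lower left of the origin.

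Many calls needed every array. With the BDIV female array left out 601 probes were called, and with the BDIV male array left out 1532. A fit without the BDIX male array called 4321 probes, and one without the BDIX female array 3059. The calls that held in each of the 6 fits with 1 array left out were 510 probes, 318 higher and 192 lower in BDIV, and no call turned its sign. The lone pool of a strain is then assumed to vary as the other arrays do. With either congenic array left out the differences stay the same, so no sign could turn there. The congenic array that remains adds nothing to the spread, so these fits are nearly the same check. Below, gene lists with calls are given with their counts with either BDIV array left out as well, and a named gene that lost its call is given with its adjusted p. The share to set beside a list's calls is 27.3% of all probes, or 13.6% in 1 direction, also where it is not repeated.

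**Figure D2:**
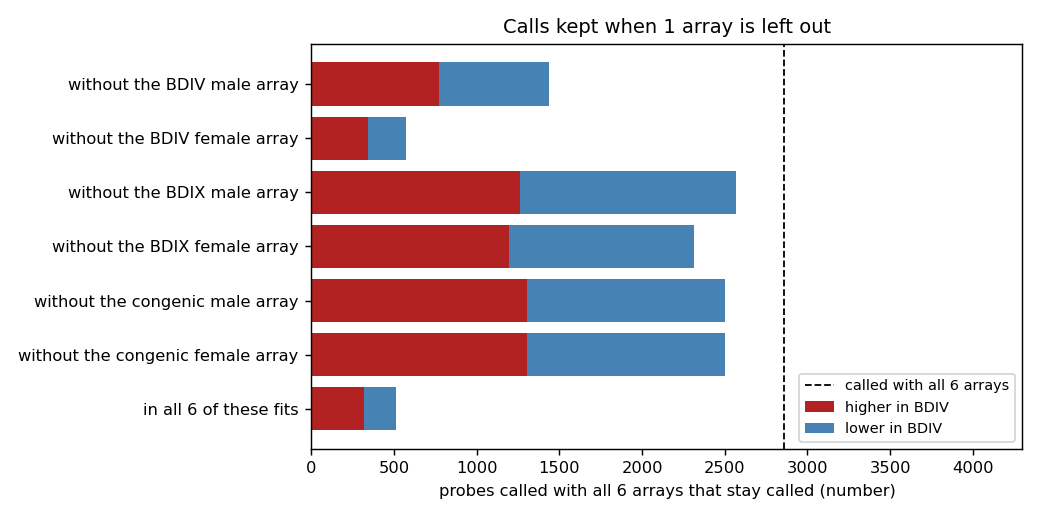
Bars give how many of the probes called with 6 arrays (dashed line, 2860) were still called after the named array was left out, red for higher and blue for lower in BDIV. The bar without the BDIV female array is the shortest of the single arrays, at 345 higher and 230 lower.

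Neuropeptides, and the granins and convertases that package and cut them, were higher in BDIV. Of 20 members measured, 16 were called higher and 0 lower, against 27.3% of all probes called, and the median difference was 1.13 against -0.03 for all probes. With the BDIV female array left out 8 were called higher, and with the BDIV male array left out 11. Sst, which encodes the inhibitory peptide somatostatin, read 9.63 and 9.96 in the BDIV pools, against 7.45 and 6.51 in the BDIX pools. Both BDIV pools lay above both BDIX pools, a difference of 2.82 ± 0.36 (adjusted p = 0.0046). Nts, the precursor of neurotensin, read 6.47 and 6.84 in the BDIV pools, against 4.64 and 4.71 in the BDIX pools. It was not detected on either BDIX array and was at least 3.06-fold higher in BDIV (adjusted p = 0.00465). Scg5, a chaperone of the prohormone convertase PC2, differed by 1.64 ± 0.22 (adjusted p = 0.0047). The granin genes Chga, Chgb and Scg2, whose products fill dense-core vesicles, differed by 1.52 ± 0.22 (adjusted p = 0.00584), 1.38 ± 0.21 (adjusted p = 0.00637) and 1.32 ± 0.21 (adjusted p = 0.00679). Each of these 6 genes kept its call whichever array was left out. Calca, Pdyn and Cartpt were on the array but not detected on any BDIV or BDIX array.

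The promoters of Sst, Scg2 and Vgf are shown because these genes were called higher and their windows hold the cAMP response element, to which the activator CREB binds in neurons. The windows of 300 bases, from 250 before to 50 after the annotated start, come from RefSeq for assembly GRCr8 of the rat reference genome, not from BDIV or BDIX rats, and run 5′ to 3′ along the gene's strand. Capitals mark TGACGTCA, a sequence that reads the same on both strands. It was found in 612 of 33469 windows (1.83%) and in those of 4 of the 20 neuropeptide and granin genes with a window, these 3 and Cartpt. The first count is of windows and the second of genes, which may have several windows, so the 2 are not directly comparable.
Sst promoter, chr11:90461296-90461595 on the plus strand: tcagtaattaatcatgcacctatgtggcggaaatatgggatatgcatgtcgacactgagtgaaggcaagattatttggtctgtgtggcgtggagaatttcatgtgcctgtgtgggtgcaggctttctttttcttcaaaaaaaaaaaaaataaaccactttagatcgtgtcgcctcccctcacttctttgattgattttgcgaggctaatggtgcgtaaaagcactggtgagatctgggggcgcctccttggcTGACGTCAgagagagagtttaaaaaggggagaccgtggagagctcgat
Scg2 promoter, chr9:88256817-88257116 on the minus strand: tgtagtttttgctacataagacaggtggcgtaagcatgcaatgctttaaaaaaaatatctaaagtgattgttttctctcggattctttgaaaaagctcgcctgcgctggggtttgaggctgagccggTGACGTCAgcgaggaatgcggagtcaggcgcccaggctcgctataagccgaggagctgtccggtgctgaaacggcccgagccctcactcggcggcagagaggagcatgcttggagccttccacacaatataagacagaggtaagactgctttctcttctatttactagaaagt
Vgf promoter, chr12:25276971-25277270 on the minus strand: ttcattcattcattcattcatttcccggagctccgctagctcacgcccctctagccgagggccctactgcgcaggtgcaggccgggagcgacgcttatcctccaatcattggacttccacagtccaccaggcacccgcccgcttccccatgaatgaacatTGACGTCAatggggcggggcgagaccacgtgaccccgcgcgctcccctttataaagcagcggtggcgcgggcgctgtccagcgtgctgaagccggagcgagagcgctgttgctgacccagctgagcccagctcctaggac
The match lies upstream of the annotated start in Scg2 and Vgf and just past it in Sst. Vgf, which encodes a secreted peptide precursor and was picked for its promoter after its value was seen, read 5.95 and 5.67 in the BDIV pools, against 4.76 and 4.89 in the BDIX pools, at least 1.71-fold higher since it was not detected on either BDIX array (adjusted p = 0.0232), and its call was lost with any of the 4 BDIV and BDIX arrays left out. A match describes the sequence of the window and not the binding of a factor in these nerves.

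Markers of sensory neurons and the structural genes of axons were also higher in BDIV. Some genes are on more than 1 list, such as the neurofilament gene Nefl on both of these, so list counts are not independent. Of 14 neuron markers measured 11 were called higher and 0 lower, with a median of 1.07. Left without the BDIV female array, 2 were called, and without the BDIV male array 7. Uchl1, a ubiquitin hydrolase abundant in neurons, read 13.11 and 13.15 in the BDIV pools, against 11.58 and 11.31 in the BDIX pools, a difference of 1.69 ± 0.22 (adjusted p = 0.00465). The groups did not overlap. Tac1, the precursor of substance P, differed by 1.14 ± 0.18 (adjusted p = 0.00685), and Isl1, a transcription factor of sensory neurons, read 8.82 and 8.75 in the BDIV pools, against 7.22 and 7.19 in the BDIX pools and differed by 1.57 ± 0.25 (adjusted p = 0.00733). These 2 calls were lost for Tac1 without the BDIV female array (adjusted p = 0.0693) and Isl1 without the BDIV female array (adjusted p = 0.0562).

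Satellite glia wrap the cell bodies of ganglion neurons and not their axons in the nerve. The summed intensity of the 6 satellite glia markers on the array was 26339 and 35538 in the BDIV pools, against 21839 and 17074 in the BDIX pools, and 1 of 4 tested was called (0 without the BDIV female array, 1 higher without the BDIV male array). Apoe, an apolipoprotein that macrophages also make and that was not called, held 74.6% to 82.7% of that sum on the 4 arrays. Without Apoe the sum was 6014 and 9016 in the BDIV pools, against 4745 and 2962 in the BDIX pools. The 1 call was Fabp7, a fatty acid binding protein of glia, at 1.83 ± 0.51 (adjusted p = 0.036). Its call was lost without the BDIV female array (adjusted p = 0.131). The summed intensity of the neuron markers was 147966 and 146204 in the BDIV pools, against 81083 and 96334 in the BDIX pools. The part of ganglion cells in the neuronal differences was not tested. In such bulk RNA fewer cells of a type and less RNA per cell cannot be told apart.

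Of 22 genes of the axonal cytoskeleton 16 were called higher and 1 lower, with a median of 1.03, and the counts were 6 higher without the BDIV female and 10 higher without the BDIV male array. Basp1, a membrane protein of growing axons, read 11.76 and 11.77 in the BDIV pools, against 10.55 and 10.16 in the BDIX pools, a difference of 1.40 ± 0.19 (adjusted p = 0.00475). Crmp1, which relays semaphorin signals to microtubules, differed by 1.73 ± 0.24 (adjusted p = 0.00494). Map1a, a microtubule-associated protein of mature neurons, read 8.33 and 8.40 in the BDIV pools, against 6.79 and 6.45 in the BDIX pools and differed by 1.74 ± 0.25 (adjusted p = 0.00549). In all 3 genes both BDIV pools lay above both BDIX pools. The exception among the calls was Stmn1, a microtubule-destabilising protein of dividing and developing cells, which fell by 0.81 ± 0.20 (adjusted p = 0.0264). Its call was lost without the BDIV male array (adjusted p = 0.0995) or without the BDIV female array (adjusted p = 0.229). Nefl, the light neurofilament chain, was among the 5 members not called, at 14.44 and 14.46 in the BDIV pools, against 14.46 and 14.84 in the BDIX pools. It was picked after its value was seen.

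The motors of axonal transport had no common direction. Of 22 measured 6 were called higher and 3 lower (4 higher without the BDIV female array, 4 higher and 2 lower without the BDIV male array), with a median of 0.08. Pafah1b1, the dynein regulator also known as Lis1, read 10.01 and 9.96 in the BDIV pools, against 6.61 and 6.81 in the BDIX pools, a difference of 3.27 ± 0.21 (adjusted p = 0.000668) and among the largest on the array. Dctn3, a subunit of the dynactin complex, and Dync1li1, a light intermediate chain of dynein, differed by 1.44 ± 0.21 (adjusted p = 0.00601) and 1.51 ± 0.23 (adjusted p = 0.00637). In these 3 genes the strains did not overlap. Klc1, a light chain of kinesin, fell by 1.19 ± 0.20 (adjusted p = 0.00807). Mapk8ip1, a scaffold that links cargo to kinesin, fell by 0.74 ± 0.19 (adjusted p = 0.0287), and Kif3c, a kinesin heavy chain, fell by 0.79 ± 0.23 (adjusted p = 0.0441). The calls of these kinesin genes were lost for Klc1 without the BDIV female array (adjusted p = 0.104), Mapk8ip1 without the BDIV male array (adjusted p = 0.115) or without the BDIV female array (adjusted p = 0.28) or without the congenic male array (adjusted p = 0.0649) or without the congenic female array (adjusted p = 0.0653) and Kif3c without the BDIV male array (adjusted p = 0.0757) or without the BDIV female array (adjusted p = 0.33) or without the BDIX female array (adjusted p = 0.0706).

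Ion channel genes were called in 1 direction only. Among voltage-gated sodium channels 5 of 8 were higher, among potassium channels 9 of 16, among calcium channels and pumps 5 of 13, and among channels of sensory transduction 4 of 9, with none called lower in any of the 4 lists. Their medians were 1.002, 0.85, 0.72 and 0.77. Without the BDIV female array the counts higher were 2, 2, 1 and 2 in the same order. Without the BDIV male array they were 3, 3, 0 and 2, and 1 potassium and 1 calcium member was then called lower. Potassium channels had 5 calls on the authors' values. Leaving out the BDIX male array gave 1, 1, 3 and 1 called lower.

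Scn3b and Scn4b encode beta subunits of sodium channels. Scn3b read 11.68 and 11.99 in the BDIV pools, against 10.23 and 9.97 in the BDIX pools, a difference of 1.73 ± 0.22 (adjusted p = 0.00465). Scn4b read 12.37 and 12.30 in the BDIV pools, against 10.63 and 10.88 in the BDIX pools, a difference of 1.59 ± 0.24 (adjusted p = 0.00601). Both subunits were higher in either BDIV pool than in either BDIX pool. Scn10a, the channel Nav1.8 of pain-sensing neurons, differed by 1.11 ± 0.22 (adjusted p = 0.0123). Its call was lost without the BDIV male array (adjusted p = 0.0537) or without the BDIV female array (adjusted p = 0.0901). Kcnip1, a calcium-binding subunit of Kv4 potassium channels, read 8.10 and 8.21 in the BDIV pools, against 6.07 and 6.37 in the BDIX pools and differed by 1.94 ± 0.26 (adjusted p = 0.00493). Kcns3 and Kcns1, silent subunits that modify Kv2 channels, differed by 1.57 ± 0.22 (adjusted p = 0.00494) and 1.28 ± 0.23 (adjusted p = 0.01). Asic3, an acid-sensing channel of sensory endings, read 10.46 and 10.29 in the BDIV pools, against 9.13 and 9.07 in the BDIX pools and differed by 1.28 ± 0.18 (adjusted p = 0.00539).

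Trpa1, a channel opened by irritants, differed by 1.32 ± 0.29 (adjusted p = 0.0181), and P2rx5, a channel gated by ATP, by 1.31 ± 0.22 (adjusted p = 0.00782). Cacnb4, an accessory subunit of calcium channels, differed by 1.56 ± 0.27 (adjusted p = 0.00865), Atp2b1, a calcium pump of the plasma membrane, by 0.81 ± 0.18 (adjusted p = 0.0191), and Cacng2, known as stargazin, by 0.84 ± 0.20 (adjusted p = 0.0245). Together with Kcns1, these calls were lost for Kcns1 without the BDIV male array (adjusted p = 0.0682) or without the BDIV female array (adjusted p = 0.0729), Trpa1 without the BDIV male array (adjusted p = 0.0876), P2rx5 without the BDIV male array (adjusted p = 0.0512) or without the BDIV female array (adjusted p = 0.0541), Cacnb4 without the BDIV male array (adjusted p = 0.0682), Atp2b1 without the BDIV male array (adjusted p = 0.0582) or without the BDIV female array (adjusted p = 0.258) and Cacng2 without the BDIV male array (adjusted p = 0.103) or without the BDIV female array (adjusted p = 0.248).

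Genes of synaptic vesicles and their fusion machinery were called higher in BDIV in 13 of 22 cases and lower in 0, with a median of 0.91. Without the BDIV female array 2 were called, and without the BDIV male array 6. The count was 7 on the authors' values and 6 with no filter on dim probes. Rab3a, the small GTPase of synaptic vesicles, read 9.01 and 9.02 in the BDIV pools, against 7.19 and 7.14 in the BDIX pools, a difference of 1.85 ± 0.24 (adjusted p = 0.0047). Nsf, the ATPase that takes apart SNARE complexes, differed by 1.69 ± 0.29 (adjusted p = 0.0084). Cplx1, which clamps vesicle fusion, differed by 1.35 ± 0.21 (adjusted p = 0.00685), and its call was lost without the BDIV female array (adjusted p = 0.0716).

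Receptors for nerve growth factors were partly higher, with 4 of 10 called higher (2 higher without the BDIV female array, 2 higher without the BDIV male array), none lower and a median of 0.36. These counts also include ligands of the receptors, and the ligand Bdnf is among the 4 called. Ntrk2, the receptor of brain-derived neurotrophic factor, read 10.21 and 10.16 in the BDIV pools, against 8.58 and 8.29 in the BDIX pools, a difference of 1.75 ± 0.19 (adjusted p = 0.0032). Its ligand Bdnf differed by 0.97 ± 0.24 (adjusted p = 0.0236), a call lost without the BDIV male array (adjusted p = 0.088) or without the BDIV female array (adjusted p = 0.272). Gfra3, the co-receptor of artemin on pain-sensing neurons, read 11.25 and 11.07 in the BDIV pools, against 9.88 and 9.68 in the BDIX pools and differed by 1.38 ± 0.17 (adjusted p = 0.00428). Both receptors were separated between the strains with no overlap. In axon guidance 6 genes were higher and 4 lower of 24 (1 higher without the BDIV female array, 2 higher and 3 lower without the BDIV male array), and the median was 0.16. Slit1, a repellent ligand of Robo receptors, read 10.15 and 10.21 in the BDIV pools, against 8.03 and 8.15 in the BDIX pools, a difference of 2.09 ± 0.22 (adjusted p = 0.00285). Among G protein subunits and their regulators 5 were higher and 2 lower of 21 (3 higher without the BDIV female array, 3 higher and 2 lower without the BDIV male array). The higher ones included Rgs10 at 1.62 ± 0.26 (adjusted p = 0.00679), Rgs4 at 1.43 ± 0.25 (adjusted p = 0.00835) and Gnao1 at 1.51 ± 0.30 (adjusted p = 0.0127), of which the last encodes the main G protein alpha subunit of neurons. The shares called were 40% for nerve growth factor receptors and ligands, 41.7% for axon guidance and 33.3% for G proteins, against 27.3% of all probes.

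The neuregulin pathway was split between ligand and receptors. Nrg1, the axonal ligand, read 9.09 and 9.15 in the BDIV pools, against 6.21 and 6.39 in the BDIX pools, a difference of 2.82 ± 0.24 (adjusted p = 0.00228). Of the 15 genes of the list measured, Nrg1 alone was called higher and 8 were called lower, with a list median of -0.94. Erbb3, the receptor that binds neuregulin on Schwann cells, read 7.32 and 7.66 in the BDIV pools, against 8.77 and 9.47 in the BDIX pools and fell by 1.63 ± 0.21 (adjusted p = 0.0047). Erbb2, its signalling partner, read 5.58 and 5.46 in the BDIV pools, against 6.87 and 6.47 in the BDIX pools. Erbb2 fell by 1.15 ± 0.23 (adjusted p = 0.0136), but it was dim and detected on only 1 of the 2 BDIV arrays. Adam17, a protease that cuts neuregulin and other ErbB ligands, read 8.99 and 8.90 in the BDIV pools, against 10.58 and 10.43 in the BDIX pools and fell by 1.57 ± 0.18 (adjusted p = 0.00378). In Nrg1, Erbb3 and Adam17 the strains did not overlap. The call of Erbb2 was lost without the BDIV male array (adjusted p = 0.096) or without the BDIV female array (adjusted p = 0.108). The list held 2 lower calls without the BDIV female and 6 without the BDIV male array.

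Genes of myelinating Schwann cells were lower in BDIV. Of 11 measured 8 were called lower and 0 higher, with a median of -1.14 that was -0.93 in the male pair and -1.51 in the female pair. Their summed intensity was 71019 and 58248 in the BDIV pools, against 108940 and 148873 in the BDIX pools. Without the BDIV female array 3 were called lower and without the BDIV male array 8. Cnp, an enzyme of uncompacted myelin, read 12.34 and 12.33 in the BDIV pools, against 13.98 and 14.40 in the BDIX pools and fell by 1.85 ± 0.20 (adjusted p = 0.00289). Gldn, which encodes gliomedin of the Schwann cell microvilli at the node of Ranvier, read 10.36 and 10.06 in the BDIV pools, against 11.78 and 12.49 in the BDIX pools and fell by 1.92 ± 0.25 (adjusted p = 0.0047). Cldn19, a claudin of the Schwann cell's own tight junctions, fell by 1.40 ± 0.21 (adjusted p = 0.00607). Its call was lost without the BDIV female array (adjusted p = 0.0552). Pmp22, a compact myelin protein picked after its value was seen, was not called, at 14.59 and 14.51 in the BDIV pools, against 14.71 and 14.93 in the BDIX pools.

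In the broader Schwann lineage list 4 of 14 were lower and 1 higher (1 higher and 2 lower without the BDIV female array, 1 higher and 2 lower without the BDIV male array), with a median of -0.45. Sox10, the transcription factor that Schwann cells need at every stage, read 10.64 and 10.68 in the BDIV pools, against 12.31 and 12.52 in the BDIX pools and fell by 1.75 ± 0.17 (adjusted p = 0.00264). The higher gene was Gfra3, given above. At the node of Ranvier and paranode 6 of 13 genes were lower and 2 higher (2 lower without the BDIV female array, 1 higher and 4 lower without the BDIV male array). The lower ones include Gldn, given above, Dlg1, a scaffold protein that fell by 1.83 ± 0.24 (adjusted p = 0.0047), and Ezr, a microvillar protein that fell by 1.24 ± 0.21 (adjusted p = 0.00776). The higher ones were Sptbn4, the axonal spectrin of the node, at 1.31 ± 0.22 (adjusted p = 0.008), and Epb41l3, an axonal scaffold protein of the paranode, at 0.95 ± 0.27 (adjusted p = 0.037). These calls were lost for Ezr without the BDIV female array (adjusted p = 0.0955), Sptbn4 without the BDIV female array (adjusted p = 0.0714) and Epb41l3 without the BDIV male array (adjusted p = 0.285) or without the BDIV female array (adjusted p = 0.0714).

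Myelin is rich in cholesterol and long-chain lipids. In each of the 2 lipid lists given here 33.3% were called, against 27.3% of all probes. Of 15 genes of sterol synthesis 5 were called lower and 0 higher, with a median of -0.50, and 0 were called lower without the BDIV female array and 2 without the BDIV male array. Msmo1, an oxidase of the pathway, fell by 1.21 ± 0.21 (adjusted p = 0.00834), and Nsdhl, the dehydrogenase that follows it, fell by 1.10 ± 0.21 (adjusted p = 0.0114). Of 24 genes of fatty acid and sphingolipid synthesis 6 were lower and 2 higher (1 higher without the BDIV female array, 1 higher and 5 lower without the BDIV male array). Cers2, the ceramide synthase of very long acyl chains, fell by 1.51 ± 0.23 (adjusted p = 0.00651), and Ugt8, which makes the myelin lipid galactosylceramide, fell by 1.16 ± 0.20 (adjusted p = 0.00837). Acsl6, an acyl-CoA synthetase of neurons, read 9.53 and 9.53 in the BDIV pools, against 7.58 and 7.59 in the BDIX pools and differed by 1.94 ± 0.19 (adjusted p = 0.00271). Except for Acsl6, these lipid genes lost calls, for Msmo1 without the BDIV female array (adjusted p = 0.0905), Nsdhl without the BDIV female array (adjusted p = 0.0963), Cers2 without the BDIV female array (adjusted p = 0.0541) and Ugt8 without the BDIV female array (adjusted p = 0.118).

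**Figure D3:**
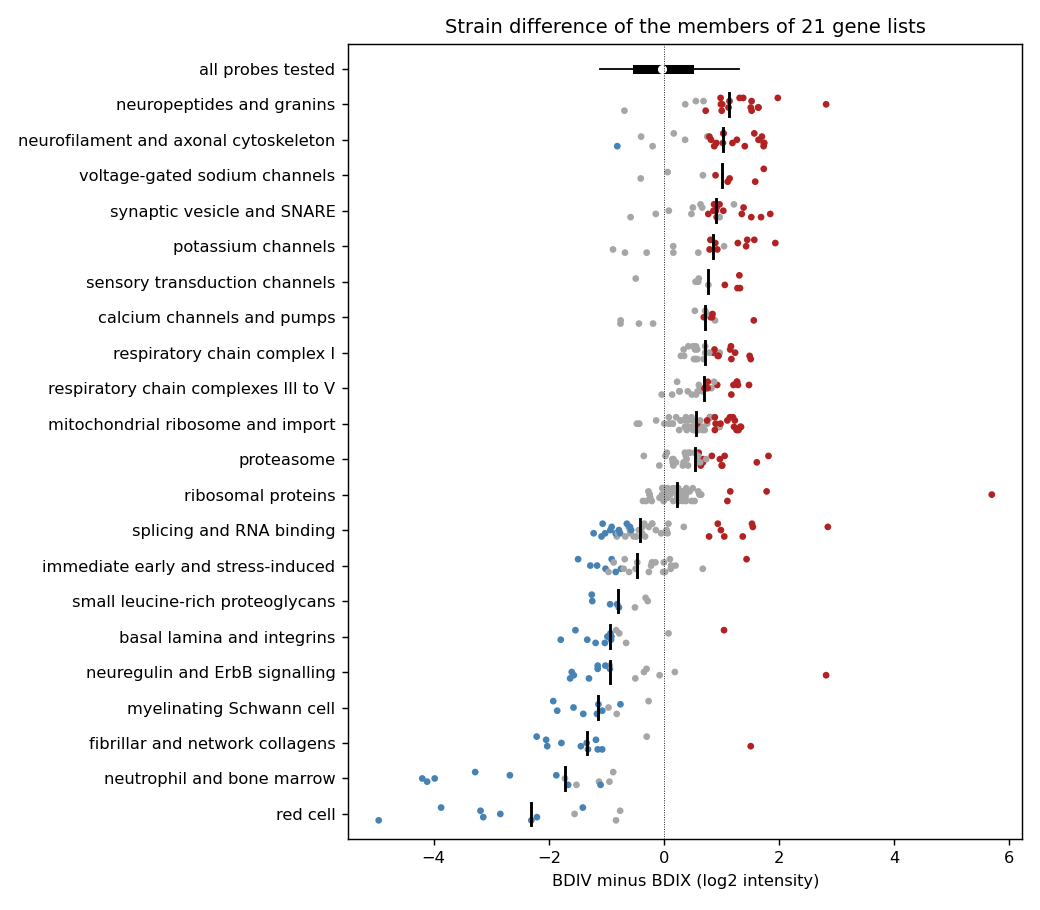
Each point is 1 gene of the list named on the y axis, with BDIV minus BDIX in log2 intensity on the x axis; red was called higher, blue lower and grey not called, and the black tick is the list median. The top row gives all probes tested, with the median as an open circle, the interquartile range as a thick bar and the range from percentile 5 to percentile 95 as a line. Neuropeptide and axonal lists lie right of 0 and collagen, myelin and red cell lists left of it.

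Most genes of collagen chains and of the basal lamina were lower in BDIV. Of 12 collagen genes measured 10 were called lower and 1 higher, with a median of -1.33. The lower calls numbered 6 without the BDIV female and 8 without the BDIV male array. Col5a2 and Col5a1 encode chains of collagen V, which sets the width of collagen fibrils. Col5a2 read 10.49 and 10.30 in the BDIV pools, against 12.32 and 12.57 in the BDIX pools and fell by 2.05 ± 0.19 (adjusted p = 0.00232), and Col5a1 read 10.20 and 10.02 in the BDIV pools, against 11.85 and 11.94 in the BDIX pools and fell by 1.78 ± 0.18 (adjusted p = 0.00283). Col4a1, a chain of the basal lamina's collagen IV, read 10.10 and 9.78 in the BDIV pools, against 11.90 and 12.03 in the BDIX pools and fell by 2.03 ± 0.20 (adjusted p = 0.00264). All 3 were lower in either BDIV pool than in either BDIX pool. Col5a3, a further chain of collagen V, fell by 2.21 ± 0.25 (adjusted p = 0.00345). The exception was Col8a1, a short-chain collagen of vessel walls, which read 7.25 and 7.04 in the BDIV pools, against 5.86 and 5.41 in the BDIX pools and was higher by 1.51 ± 0.28 (adjusted p = 0.0107).

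Enzymes and chaperones that modify and crosslink collagen were called lower for 8 of 19 genes (3 lower without the BDIV female array, 6 lower without the BDIV male array) and higher for none, with a median of -0.25. Sparc, a collagen-binding glycoprotein, read 12.80 and 12.49 in the BDIV pools, against 14.13 and 14.30 in the BDIX pools and fell by 1.57 ± 0.21 (adjusted p = 0.0047). Loxl3, a lysyl oxidase, fell by 1.47 ± 0.23 (adjusted p = 0.0064). Plod3, a lysyl hydroxylase, fell by 1.19 ± 0.17 (adjusted p = 0.00588), a call lost without the BDIV female array (adjusted p = 0.0568). Of 15 genes of the basal lamina and its integrin receptors 10 were lower and 1 higher, with a median of -0.93, and 3 were lower without the BDIV female and 8 without the BDIV male array. Lamb2, a laminin chain of the Schwann cell basal lamina, read 10.70 and 10.69 in the BDIV pools, against 12.01 and 12.05 in the BDIX pools and fell by 1.33 ± 0.17 (adjusted p = 0.00467). Itgb4, the laminin receptor subunit of myelinating Schwann cells and perineurial cells, read 11.71 and 11.52 in the BDIV pools, against 12.96 and 13.35 in the BDIX pools and fell by 1.54 ± 0.21 (adjusted p = 0.00494). Itga5, a fibronectin receptor subunit, fell by 1.79 ± 0.25 (adjusted p = 0.0053). The higher gene was Itga1, a collagen receptor subunit, at 1.04 ± 0.30 (adjusted p = 0.0392), with the call lost without the BDIV female array (adjusted p = 0.458) or without the BDIX female array (adjusted p = 0.128).

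Small leucine-rich proteoglycans, which coat collagen fibrils, were lower for 5 of 8 genes with a median of -0.80, but 0 passed without the BDIV female array and 2 without the BDIV male array, and 2 on the authors' values. Lum, the proteoglycan lumican, fell by 1.25 ± 0.19 (adjusted p = 0.00644). Among matrix proteases and their inhibitors 5 of 21 were lower and none higher (2 lower without the BDIV female array, 5 lower without the BDIV male array), a share of 23.8% called against 27.3% of all probes. They include Serpine2, an inhibitor of thrombin made by glia, at -1.44 ± 0.18 (adjusted p = 0.00449) and Adamts5, a protease of aggrecan, at -1.31 ± 0.19 (adjusted p = 0.00597). The call of Lum was lost without the BDIV female array (adjusted p = 0.0611).

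Markers of the cells of the nerve sheath and vessels were called lower in part. Of 13 fibroblast markers 7 were lower and 1 higher (1 higher and 2 lower without the BDIV female array, 1 higher and 4 lower without the BDIV male array), and the summed intensity of the list was 71744 and 64633 in the BDIV pools, against 88396 and 94634 in the BDIX pools. The 1 called higher was Thy1, which rat neurons carry as well, at 12.33 and 12.54 in the BDIV pools, against 10.53 and 10.78 in the BDIX pools and a difference of 1.78 ± 0.25 (adjusted p = 0.00522). Pdgfra, the platelet-derived growth factor receptor of fibroblasts, read 9.05 and 9.15 in the BDIV pools, against 10.21 and 10.80 in the BDIX pools and fell by 1.41 ± 0.20 (adjusted p = 0.00529). Perineurial markers were lower for 3 and higher for 1 of 8 (1 higher and 2 lower without the BDIV female array, 1 higher and 3 lower without the BDIV male array), with a summed intensity of 5949 and 6182 in the BDIV pools, against 12971 and 16319 in the BDIX pools, and endothelial markers were lower for 4 of 8 (1 lower without the BDIV female array, 1 lower without the BDIV male array), with a summed intensity of 7193 and 6302 in the BDIV pools, against 9077 and 9583 in the BDIX pools. Itgb4 held 47.2% to 63.7% of the perineurial sum and Cldn5, a claudin of endothelial tight junctions, 42.4% to 61.4% of the endothelial sum. Mural cells of vessels had 1 marker higher and 1 lower of 4 (1 lower without the BDIV female array, 1 lower without the BDIV male array). Vwf, the clotting factor carrier of endothelium, fell by 1.96 ± 0.18 (adjusted p = 0.00232). The part of fewer such cells in the matrix differences was not tested.

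Red cell transcripts were among the largest falls. Of 11 red cell markers measured 8 were called lower and 0 higher, with a median of -2.30, and the summed intensity of the list was 20961 and 14796 in the BDIV pools, against 70846 and 73278 in the BDIX pools. Without the BDIV female array 8 were called lower and without the BDIV male array 7. Hba-a3, an alpha globin, read 7.41 and 6.77 in the BDIV pools, against 12.45 and 11.64 in the BDIX pools and fell by 4.96 ± 0.23 (adjusted p = 0.000402). Hbb-b1, a beta globin, read 10.43 and 9.96 in the BDIV pools, against 13.37 and 12.71 in the BDIX pools and fell by 2.84 ± 0.17 (adjusted p = 0.000627). Alas2, the red cell enzyme that starts haem synthesis, was not detected on either BDIV array and was at least 6.94-fold lower (adjusted p = 0.00264). Hemgn, a nuclear protein of red cell precursors, was not detected in BDIV either and was at least 8.72-fold lower (adjusted p = 0.0093). Lgals5, a galectin of rat reticulocytes, read 6.69 and 6.23 in the BDIV pools, against 10.67 and 9.99 in the BDIX pools and fell by 3.87 ± 0.23 (adjusted p = 0.000627). In each of these 5 genes both BDIV pools lay below both BDIX pools. Globin probes of near-identical copies can share target RNA, so the single globin genes are uncertain.

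The promoters of Alas2, Hemgn and Lgals5 are shown because these genes were called lower and hold the motif AGATAA, a site of the red cell factor GATA1, in the window from RefSeq for GRCr8. It was found on either strand in 3877 of 33469 windows (11.6%) and in those of 3 of the 11 red cell genes with a window, these 3. Capitals mark the motif, which reads TTATCT where it lies on the other strand.
Alas2 promoter, chrX:22895200-22895499 on the plus strand: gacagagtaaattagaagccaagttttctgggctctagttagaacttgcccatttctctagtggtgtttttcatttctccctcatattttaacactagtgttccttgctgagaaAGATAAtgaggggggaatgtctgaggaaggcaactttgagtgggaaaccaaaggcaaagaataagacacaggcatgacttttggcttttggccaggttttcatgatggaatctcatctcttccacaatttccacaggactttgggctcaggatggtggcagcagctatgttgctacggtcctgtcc
Hemgn promoter, chr5:65485772-65486071 on the minus strand: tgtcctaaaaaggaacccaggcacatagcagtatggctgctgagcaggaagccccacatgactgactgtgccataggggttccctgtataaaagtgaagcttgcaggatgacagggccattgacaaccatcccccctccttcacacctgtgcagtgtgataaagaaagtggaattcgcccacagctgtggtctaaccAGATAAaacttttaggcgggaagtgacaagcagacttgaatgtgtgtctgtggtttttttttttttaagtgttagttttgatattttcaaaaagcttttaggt
Lgals5 promoter, chr10:64355088-64355387 on the minus strand: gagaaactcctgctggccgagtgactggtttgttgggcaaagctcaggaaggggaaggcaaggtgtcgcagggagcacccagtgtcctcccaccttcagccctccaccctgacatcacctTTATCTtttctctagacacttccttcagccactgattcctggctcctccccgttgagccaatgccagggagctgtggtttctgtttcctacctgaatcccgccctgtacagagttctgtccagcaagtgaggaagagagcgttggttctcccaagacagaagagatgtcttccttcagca
Each window holds 1 match, upstream of the annotated start.

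Neutrophil and bone marrow transcripts read lower in both BDIV pools and differed between the BDIX pools. Of 13 markers 8 were called lower and 0 higher, with a summed intensity of 312 and 287 in the BDIV pools, against 9320 and 1605 in the BDIX pools. Defa5, a defensin, was not detected on either BDIV array and read 5.34 and 5.19 in the BDIV pools, against 10.99 and 7.94 in the BDIX pools, at least 18.4-fold lower (adjusted p = 0.0135). S100a8, a calcium-binding protein of neutrophils, read 6.37 and 6.47 in the BDIV pools, against 11.59 and 9.21 in the BDIX pools and fell by 3.98 ± 0.90 (adjusted p = 0.0192). In both genes the BDIX male pool was the highest, and both BDIV pools lay below it and below the BDIX female pool. The number of lower calls was 3 without the BDIV male and 9 without the BDIV female array, 6 without the BDIX male and 6 without the BDIX female array. Without the sex term in the fit 0 were called, and 3 were called on the authors' values, 1 with detection required on all 4 arrays and 13 in a fit to the 4 arrays alone. The summed intensity also differed between the congenic pools, at 9584 in the male and 466 in the female pool.

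Markers of tissues near the nerve were examined in the same way. Of 6 pituitary markers the 3 called higher were the granin genes given above, which neurons also use, and the 1 called lower was Prl (3 higher and 2 lower without the BDIV female array, 3 higher and 1 lower without the BDIV male array). Prl, which encodes prolactin, read 5.33 and 7.59 in the BDIV pools, against 8.70 and 12.43 in the BDIX pools and fell by 4.10 ± 0.71 (adjusted p = 0.00855). It was high in the BDIX female pool, and both strains had more in the female than in the male pool. Prl was detected on only 1 of the 2 BDIV arrays, so the size of its fall is uncertain. Pomc, the precursor of pituitary hormones, picked after its value was seen, read 6.11 and 7.41 in the BDIV pools, against 10.19 and 7.92 in the BDIX pools and was not called, and Lhb, Fshb, Cga, Pou1f1 and Ghrhr were not detected. Skeletal muscle markers had 2 of 6 called higher (1 higher without the BDIV female array, 2 higher without the BDIV male array). These were Acta1, skeletal actin, at 2.30 ± 0.32 (adjusted p = 0.00502), and Pvalb, a calcium buffer that large sensory neurons also make, at 1.67 ± 0.28 (adjusted p = 0.00771), with the call of Pvalb lost without the BDIV female array (adjusted p = 0.0597). Ckm, Myh2, Myh4, Tnni2 and Mb of muscle were not detected on any of the 4 arrays.

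Macrophage markers had none of 11 called by limma (2 at an unadjusted p under 0.05), and their summed intensity was 4904 and 4824 in the BDIV pools, against 7099 and 2308 in the BDIX pools, so the BDIX pools lay on either side of the BDIV pools. For T cells the 1 call of 3 was Thy1 (1 higher without the BDIV female array, 1 higher without the BDIV male array), and Cd3e, Cd3d, Cd4, Cd8a and Lck were not detected. None of the single B cell and keratinocyte markers tested, the 3 of mast cells or the 2 of adipocytes was called by limma (2 and 1 of the last 2 lists and 0 and 0 of the first 2 at an unadjusted p under 0.05). Cartilage and bone markers had 3 lower and 1 higher of 8 (1 lower without the BDIV female array, 1 higher and 3 lower without the BDIV male array), with Col2a1, the cartilage collagen, at -1.54 ± 0.22 (adjusted p = 0.0053). The oligodendrocyte list, whose cells myelinate the brainstem root of the nerve, had 1 higher and 1 lower of 9 (0 without the BDIV female array, 1 higher without the BDIV male array), with a median -0.33 in the male pair and 1.26 in the female pair. The astrocyte list had 1 higher of 6 (1 higher and 1 lower without the BDIV female array, 1 higher without the BDIV male array), and airway and gland epithelium 1 lower of 10 (0 without the BDIV female array, 1 lower without the BDIV male array). The part of neighbouring tissue in the strain differences was not tested.

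**Figure D4:**
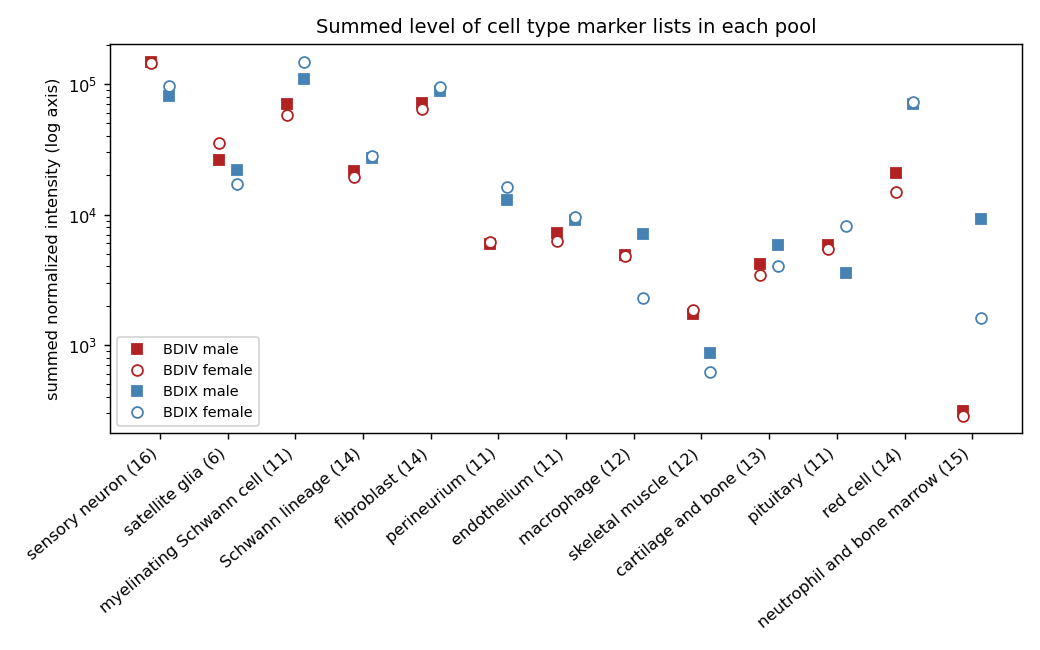
The y axis gives the summed normalised intensity of each marker list on a log axis, and the x axis names the list with its number of genes on the array; squares are male and circles female pools, with BDIV in red left of BDIX in blue. The red cell and neutrophil lists lie lower in both BDIV pools, and the macrophage list of the BDIX pools lies on either side of BDIV.

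**Figure D5:**
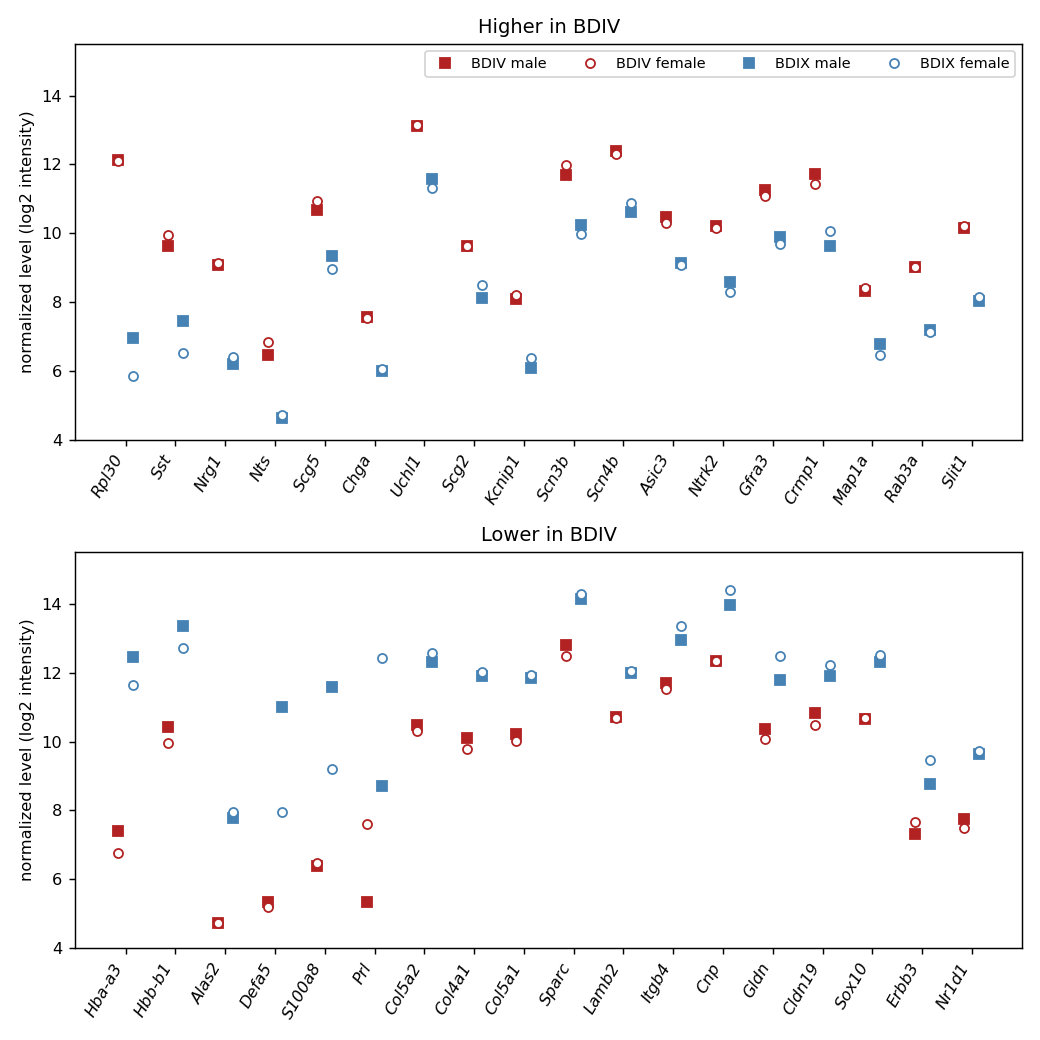
The y axis gives the normalised level in log2 intensity of genes described in the text, with BDIV pools in red left of BDIX pools in blue, squares for male and open circles for female pools. The upper panel holds genes called higher in BDIV and the lower panel genes called lower; levels of different genes are not comparable.

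Genes of mitochondrial energy production were called in 1 direction, although most were not called, and their calls depended on single arrays and on the scaling. Of 26 complex I genes 10 were called higher and none lower, and the median of 0.72 was 0.37 in the male pair and 1.30 in the female pair. Complexes III to V had 11 of 25 higher and none lower, with a median of 0.70 that was 0.42 in the male pair and 1.05 in the female pair. The mitochondrial ribosome and import list had 17 of 53 higher and none lower. The shares called in these 3 lists were 38.5%, 44% and 32.1%, against 27.3% of all probes in either direction and 13.6% higher. Summed complex I intensity was 141464 and 147184 in the BDIV pools, against 113312 and 64617 in the BDIX pools, so the BDIX female pool was the lowest. In the 3 lists 0, 0 and 0 genes were called higher without the BDIV female array, and 23, 21 and 37 without the BDIX male array. They numbered 12, 10 and 12 without the BDIV male array. Median scaling gave 22, 17 and 29, and the authors' values gave 2, 3 and 12. Ndufa7, a subunit of complex I, read 9.93 and 9.98 in the BDIV pools, against 8.80 and 8.14 in the BDIX pools and differed by 1.49 ± 0.22 (adjusted p = 0.00604). Cox5a, a subunit of cytochrome oxidase, read 12.83 and 12.99 in the BDIV pools, against 11.98 and 10.89 in the BDIX pools and differed by 1.48 ± 0.29 (adjusted p = 0.0123). Both calls were lost, for Ndufa7 without the BDIV female array (adjusted p = 0.0531) and Cox5a without the BDIV female array (adjusted p = 0.0968).

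Proteasome subunits were called higher for 11 of 35 and lower for none, with a median of 0.53 that was 0.39 in the male pair and 0.68 in the female pair. The share called was 31.4%, against 27.3% of all probes in either direction and 13.6% higher. Psmd3 and Psmd5, a subunit and an assembly chaperone of the regulatory particle, differed by 1.61 ± 0.17 (adjusted p = 0.00283) and 1.82 ± 0.22 (adjusted p = 0.00428). The count was 2 without the BDIV female and 6 without the BDIV male array, 24 under median scaling and 2 on the authors' values. Ribosomal proteins had 4 of 56 called higher (1 higher without the BDIV female array, 3 higher without the BDIV male array) and none lower, and the median of 0.23 was -0.12 in the male pair and 0.58 in the female pair. Rpl30, a protein of the large subunit, stood apart at 12.12 and 12.08 in the BDIV pools, against 6.96 and 5.85 in the BDIX pools, a difference of 5.70 ± 0.30 (adjusted p = 0.000405) and the largest on the array. Without the BDIX male array 35 ribosomal genes were called higher. In glycolysis 4 of 17 and in the citric acid cycle 3 of 17 were higher and none lower, shares of 23.5% and 17.6% where 27.3% of all probes were called in either direction and 13.6% higher. In both lists the calls came to 0 with either BDIV array left out, and median scaling gave 9 and 7. Eno1, an enolase, at 1.14 ± 0.22 (adjusted p = 0.0121) and Pkm, pyruvate kinase, at 1.12 ± 0.26 (adjusted p = 0.021) led the glycolytic genes. These were lost for Eno1 without the BDIV male array (adjusted p = 0.0587) or without the BDIV female array (adjusted p = 0.155) and Pkm without the BDIV male array (adjusted p = 0.0529) or without the BDIV female array (adjusted p = 0.098).

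Immune genes differed gene by gene. Of 23 genes of antigen presentation 3 were higher and 1 lower (2 higher and 1 lower without the BDIV female array, 3 higher without the BDIV male array). RT1-CE16, a class I gene of the rat major histocompatibility complex, read 7.94 and 7.91 in the BDIV pools, against 4.68 and 4.62 in the BDIX pools without detection in BDIX, at least 7.41-fold higher (adjusted p = 0.000754). RT1-A3, a related class I gene, read 10.91 and 10.91 in the BDIV pools, against 9.07 and 8.36 in the BDIX pools and differed by 2.19 ± 0.22 (adjusted p = 0.00283). The class I genes are near-identical and vary between strains, so these probes are uncertain as to gene. Of 22 complement and coagulation genes 7 were lower and 1 higher (3 lower without the BDIV female array, 3 lower without the BDIV male array), with Pros1, the anticoagulant protein S, at -1.68 ± 0.21 (adjusted p = 0.0046) and Serping1, the inhibitor of C1, at -1.29 ± 0.18 (adjusted p = 0.00522). The interferon-induced list had 3 higher and 2 lower of 19 (1 higher without the BDIV female array, 2 higher and 1 lower without the BDIV male array), with the antiviral gene Mx2 at 1.85 ± 0.18 (adjusted p = 0.00251). Chemokines and cytokines had 2 higher and 4 lower of 25 (1 lower without the BDIV female array, 2 higher and 3 lower without the BDIV male array), with Il16, a chemoattractant cytokine, at -1.72 ± 0.25 (adjusted p = 0.00546).

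Genes of alkylation and base excision repair were called about as often as all probes, at 26.3% against 27.3%. The share was 12% for mismatch, excision and break repair. Of 19 genes of alkylation and base excision repair 1 was higher and 4 were lower (0 without the BDIV female array, 2 higher without the BDIV male array), with a median of -0.16. Alkbh3, which takes methyl groups off DNA and RNA, differed by 0.98 ± 0.19 (adjusted p = 0.0117). Apex2, an endonuclease of base excision repair, fell by 1.16 ± 0.24 (adjusted p = 0.0142), and Xrcc1, the scaffold of that pathway, fell by 0.71 ± 0.19 (adjusted p = 0.0302). Their calls were lost for Alkbh3 without the BDIV female array (adjusted p = 0.156), Apex2 without the BDIV male array (adjusted p = 0.0536) or without the BDIV female array (adjusted p = 0.16) and Xrcc1 without the BDIV male array (adjusted p = 0.122) or without the BDIV female array (adjusted p = 0.332) or without the congenic male array (adjusted p = 0.0584) or without the congenic female array (adjusted p = 0.0583). Mgmt, which removes alkyl groups from guanine and was picked for that role after its value was seen, read 6.93 and 7.20 in the BDIV pools, against 6.55 and 5.33 in the BDIX pools and was not called (adjusted p = 0.0543). The Mgmt pairs differed in size, since the BDIX female pool was the lowest of the 4. Mgmt was dim and detected on only 1 of the 2 BDIX arrays. In mismatch, excision and break repair 1 was higher and 2 were lower of 25 (0 without the BDIV female array, 0 without the BDIV male array).

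Oxidative and electrophile defence had 6 higher and 4 lower of 42 (1 higher and 1 lower without the BDIV female array, 2 higher and 2 lower without the BDIV male array). Gpx2, a glutathione peroxidase, read 10.77 and 10.64 in the BDIV pools, against 8.24 and 7.005 in the BDIX pools and differed by 3.08 ± 0.29 (adjusted p = 0.00232), while Gclc, the catalytic subunit that starts glutathione synthesis, fell by 1.51 ± 0.21 (adjusted p = 0.00494). Both genes kept their calls whichever array was left out. Phase I and conjugating enzymes had 4 higher and 8 lower of 26 (2 lower without the BDIV female array, 7 lower without the BDIV male array). Cyp1b1, a cytochrome P450 that activates carcinogens, read 8.997 and 9.01 in the BDIV pools, against 10.44 and 10.69 in the BDIX pools and fell by 1.56 ± 0.18 (adjusted p = 0.00406), and Maob, a monoamine oxidase, fell by 1.67 ± 0.25 (adjusted p = 0.00617).

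Genes linked to schwannoma and to growth control were mostly not called, as was true of all probes. The share called was 23.1% in the tumour suppressor and schwannoma list and 18.75% in the Ras and MAP kinase list. It was 27.3% of all probes. The tumour suppressor and schwannoma list had 3 lower and none higher of 13 (0 without the BDIV female array, 0 without the BDIV male array). These were Eed, a subunit of the Polycomb repressive complex, at -0.81 ± 0.18 (adjusted p = 0.0193), Cdkn1b, a cell cycle inhibitor, at -0.66 ± 0.17 (adjusted p = 0.0299), and Tsc2, a brake on mTOR, at -0.71 ± 0.19 (adjusted p = 0.0325). Nf2 was not detected on any of the 4 arrays. Ras and MAP kinase genes had 3 lower of 16 (0 without the BDIV female array, 0 without the BDIV male array), with the kinases Braf at -1.03 ± 0.22 (adjusted p = 0.0154) and Araf at -0.81 ± 0.23 (adjusted p = 0.0386). Their calls were lost for Eed without the BDIV male array (adjusted p = 0.0522) or without the BDIV female array (adjusted p = 0.272), Cdkn1b without the BDIV male array (adjusted p = 0.179) or without the BDIV female array (adjusted p = 0.276) or without the congenic male array (adjusted p = 0.0756) or without the congenic female array (adjusted p = 0.0753) and Tsc2 without the BDIV male array (adjusted p = 0.119) or without the BDIV female array (adjusted p = 0.371) or without the congenic male array (adjusted p = 0.0584) or without the congenic female array (adjusted p = 0.0584) in the first list, and for Braf without the BDIV male array (adjusted p = 0.0758) or without the BDIV female array (adjusted p = 0.107) and Araf without the BDIV male array (adjusted p = 0.0951) or without the BDIV female array (adjusted p = 0.404) or without the BDIX female array (adjusted p = 0.104) in the second.

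Other growth pathways were mixed. The Hippo list had 2 lower of 10 (1 lower without the BDIV female array, 2 lower without the BDIV male array), the Wnt list 3 of 17 (0 without the BDIV female array, 1 lower without the BDIV male array) with none higher in either, and the Notch and Hedgehog list had 1 higher and 2 lower of 11 (0 without the BDIV female array, 1 higher and 1 lower without the BDIV male array). In the Hippo list Ajuba, an adaptor that restrains the Lats kinases, fell by 1.55 ± 0.25 (adjusted p = 0.00711). TGF-beta and BMP genes had 3 higher and 9 lower of 28 (1 higher and 1 lower without the BDIV female array, 1 higher and 6 lower without the BDIV male array). Grem1, an antagonist of BMPs, read 7.35 and 7.38 in the BDIV pools, against 5.72 and 5.43 in the BDIX pools and differed by 1.79 ± 0.30 (adjusted p = 0.00807), and Ltbp1, which holds latent TGF-beta in the matrix, fell by 1.52 ± 0.20 (adjusted p = 0.0047). Both kept their calls with any array left out. PI3 kinase and mTOR genes had 2 higher and 3 lower of 19 (0 without the BDIV female array, 1 higher and 1 lower without the BDIV male array). The insulin-like growth factor list had 2 higher and 1 lower of 10 (1 higher and 1 lower without the BDIV female array, 1 higher without the BDIV male array), and Igfbp2, a binding protein, differed by 1.62 ± 0.22 (adjusted p = 0.00486). The list of fibroblast and platelet-derived growth factors had 2 higher and 3 lower of 18 (1 higher and 2 lower without the BDIV female array, 2 higher and 2 lower without the BDIV male array). Fgf7, a growth factor of fibroblasts, fell by 1.73 ± 0.23 (adjusted p = 0.00494), while Fgf13, an intracellular partner of sodium channels, was higher by 1.61 ± 0.22 (adjusted p = 0.00479).

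Immediate early genes were lower for 7 and higher for 1 of 27 (1 higher and 1 lower without the BDIV female array, 1 higher and 5 lower without the BDIV male array). Egr1, a transcription factor induced within minutes of a stimulus, read 7.52 and 7.50 in the BDIV pools, against 8.95 and 9.05 in the BDIX pools and fell by 1.49 ± 0.20 (adjusted p = 0.0047). The higher gene was Gadd45g, a stress response gene, at 1.44 ± 0.24 (adjusted p = 0.00806). The share called was 29.6% in this list and 30% in the clock list, near the 27.3% of all probes. Clock genes were lower for 3 of 10 (1 lower without the BDIV female array, 3 lower without the BDIV male array) and higher for none. Nr1d1, the clock repressor Rev-erb alpha, read 7.75 and 7.49 in the BDIV pools, against 9.63 and 9.72 in the BDIX pools and fell by 2.06 ± 0.21 (adjusted p = 0.00283), with no overlap of the strains. Bhlhe40, which also represses the clock, fell by 1.31 ± 0.20 (adjusted p = 0.00604), and Bmal1, the core activator of the clock, fell by 1.04 ± 0.22 (adjusted p = 0.0165). These 2 calls were lost for Bhlhe40 without the BDIV female array (adjusted p = 0.0592) and Bmal1 without the BDIV male array (adjusted p = 0.12) or without the BDIV female array (adjusted p = 0.151). The labels do not state the hour at which nerves were taken.

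Splicing and RNA binding genes fell on both sides, with 8 higher and 12 lower of 42 (3 higher and 1 lower without the BDIV female array, 5 higher and 5 lower without the BDIV male array). Celf6 and Rbfox1, splicing regulators found mainly in neurons, were higher by 2.85 ± 0.25 (adjusted p = 0.0023) and 1.54 ± 0.22 (adjusted p = 0.00522). Ptbp1, the splicing repressor that neurons lose, fell by 1.22 ± 0.18 (adjusted p = 0.00573), with the call lost without the BDIV female array (adjusted p = 0.0531). Limk1, the kinase that inactivates cofilin, read 10.42 and 10.56 in the BDIV pools, against 8.59 and 7.58 in the BDIX pools and differed by 2.41 ± 0.28 (adjusted p = 0.00387), and Flna, an actin crosslinker, fell by 1.48 ± 0.18 (adjusted p = 0.00428). In caveolae and coats 5 were higher and 5 lower of 28 (1 higher and 1 lower without the BDIV female array, 2 higher and 4 lower without the BDIV male array). Cavin2, a coat protein of caveolae, fell by 1.75 ± 0.23 (adjusted p = 0.0047), and Ap2m1, a subunit of the clathrin adaptor AP2, was higher by 1.26 ± 0.18 (adjusted p = 0.0053).

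Among lists of general cell upkeep, replication and cell cycle had 1 higher and 5 lower of 43 (2 lower without the BDIV female array, 0 without the BDIV male array), and apoptosis and p53 targets 4 higher and 5 lower of 28 (2 higher without the BDIV female array, 2 higher and 1 lower without the BDIV male array). Chromatin genes had 2 higher and 9 lower of 37 (0 without the BDIV female array, 3 lower without the BDIV male array), and lysosome and autophagy genes 10 higher and 7 lower of 54 (1 lower without the BDIV female array, 4 higher and 5 lower without the BDIV male array). Chaperones had 2 higher and 3 lower of 43 (1 higher without the BDIV female array, 2 higher and 1 lower without the BDIV male array), translation factors 4 higher and 2 lower of 44 (1 higher without the BDIV female array, 1 higher and 1 lower without the BDIV male array), and fatty acid oxidation 3 higher and 1 lower of 22 (1 higher without the BDIV female array, 2 higher without the BDIV male array). Transporters had 4 higher and 7 lower of 33 (3 higher without the BDIV female array, 3 higher and 4 lower without the BDIV male array). In the cell cycle list Cdc25b, a phosphatase that drives entry to mitosis, fell by 1.28 ± 0.27 (adjusted p = 0.0154), with the call lost without the BDIV male array (adjusted p = 0.0523) or without the BDIV female array (adjusted p = 0.124) or without the BDIX female array (adjusted p = 0.07).

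Several of the largest differences belonged to no list. Tlcd3b, a ceramide synthase of photoreceptors, read 9.17 and 8.95 in the BDIV pools, against 5.77 and 5.61 in the BDIX pools and was higher by 3.37 ± 0.23 (adjusted p = 0.000754). Reg3a, a secreted lectin, was not detected in BDIX and was at least 6.85-fold higher (adjusted p = 0.00232). Cdk5r2, an activator of the neuronal kinase Cdk5, was higher by 2.68 ± 0.26 (adjusted p = 0.00264), and Adora1, the adenosine A1 receptor, by 2.47 ± 0.23 (adjusted p = 0.00232). Ass1, an enzyme of arginine synthesis, read 10.56 and 10.60 in the BDIV pools, against 8.22 and 7.98 in the BDIX pools and was higher by 2.48 ± 0.21 (adjusted p = 0.00188). Tmod1, which caps actin filaments, differed by 2.29 ± 0.19 (adjusted p = 0.00204). Each of these genes kept its call whichever array was left out. Rhoa, a GTPase that steers the actin cytoskeleton, was the exception among the 30 largest differences higher in BDIV, at 2.68 ± 0.82 (adjusted p = 0.0483), and its call was lost without the BDIV male array (adjusted p = 0.0832) or without the BDIX female array (adjusted p = 0.187). Plekhh1, picked after its value was seen, read 8.44 and 8.49 in the BDIV pools, against 4.80 and 4.86 in the BDIX pools and was at least 10.8-fold higher (adjusted p = 0.000659). It was detected on 1 of the 2 BDIV arrays and on neither BDIX array, so it was not tested where detection on all 4 arrays was required.

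Among the falls outside the lists, Fam151b, not detected in BDIV, read 4.56 and 4.60 in the BDIV pools, against 9.42 and 9.02 in the BDIX pools and was at least 17.8-fold lower (adjusted p = 0.000405). Alox15, a lipoxygenase of white blood cells, was not detected in BDIV and was at least 9.76-fold lower (adjusted p = 0.000659). Ifi47, an interferon-induced GTPase, was at least 5.18-fold lower (adjusted p = 0.00283). Rhbdf1, an inactive rhomboid protein that helps ADAM17 mature, read 7.07 and 7.37 in the BDIV pools, against 9.80 and 9.91 in the BDIX pools and fell by 2.63 ± 0.19 (adjusted p = 0.000923). Pard6g, a protein of cell polarity, fell by 2.56 ± 0.24 (adjusted p = 0.00236), and Sema4g, a semaphorin, fell by 2.42 ± 0.25 (adjusted p = 0.00283). Nos3, the nitric oxide synthase of endothelium, was not detected in BDIV and was at least 4.27-fold lower (adjusted p = 0.00428). Of the 30 largest falls 26 kept their calls with any array left out, and the other 4 were Np4, Ngp, Retnlg and Ahsp, genes of neutrophils and red cells. Their calls were lost for Np4 without the BDIV male array (adjusted p = 0.141) or without the BDIX male array (adjusted p = 0.0732) or without the BDIX female array (adjusted p = 0.0689), Ngp without the BDIV male array (adjusted p = 0.123) or without the BDIX female array (adjusted p = 0.0843), Retnlg without the BDIV male array (adjusted p = 0.203) or without the BDIX male array (adjusted p = 0.0521) or without the BDIX female array (adjusted p = 0.11) and Ahsp without the BDIV male array (adjusted p = 0.157) or without the BDIX male array (adjusted p = 0.0791) or without the BDIX female array (adjusted p = 0.053).

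Presence and absence gave 312 probes detected on both BDIV arrays and on neither BDIX array, of which 147 were called higher. Another 256 were detected on both BDIX arrays and on neither BDIV array, of which 100 were called lower. Choosing probes by detection in a single strain largely fixed the direction of any call, so these counts describe and do not test. Of all probes 13.6% were called higher and 13.6% lower, but probes chosen in this way cannot be fairly compared with those shares. Probe sequences were not analysed here, so a strain difference in sequence under a probe cannot be told apart from a difference in transcript level. This holds for every probe named, with Rpl30, Fam151b and the RT1 genes among them.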

How the data were processed

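RNA was extracted with Trizol, and biotinylated cRNA was hybridised to Illumina rat arrays, per the labels' protocols. Per the file headers, the authors deposited a signal intensity on a linear scale and a detection p-value for each of 21791 probes per array. The submitters' processing notes list BeadStudio 3.0. The processed intensity that the authors deposited followed a straight line of the signal on every array and was used as an alternative. Values of 242 probes were exchanged between neighbouring probes in one deposited file compared with the other, and these probes were left out.

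Background was removed with the normal-exponential model (limma 3.58.1 in R 4.3.3), whose parameters came from the detection p. Its means ran from 65.8 to 66.3 on the BDIV arrays and from 57.9 to 63.4 on the BDIX arrays. On the congenic male and female arrays they were higher, at 84.6 and 80.6. The upper quartile of signal there was 2.58 and 2.64 times the background mean, against 5.33 to 6.46 on the BDIV and BDIX arrays. Quantile normalisation of all 6 arrays together followed the addition of an offset of 16, and values were taken to log2. A probe was tested where its detection p was below 0.01 on 2 or more of the 6 arrays, which left 10484 probes. The limma fit had terms for strain and sex on all 6 arrays and an intensity trend, with 2 residual and 5.23 prior degrees of freedom. Each adjusted p was computed by Benjamini-Hochberg over all tested probes. The steps were tested on simulated data, and the number of arrays limits the precision. For an "at least" fold, the dimmer strain's mean was taken over arrays after raising each of its values to that array's lowest detected signal.

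The platform annotation gave 1 symbol to 13387 probes and none to the rest, and 13349 of these were matched by gene number to RefSeq genes (GRCr8). The comparison and the 79 gene lists were chosen with earlier results of these data known. The counts of 1 list are not reported here. Genes were named by rule. The first rule took the 30 largest differences in each direction among called probes of 1 sign in both sexes that were detected on both arrays of the brighter strain. The second took up to 3 called members per direction of each list by smallest p, and where fewer than 3 were called, up to 2 others. Receptors, ligands and inhibitors of called members were given as values. Other genes are marked as picked after their values were seen. Alternatives were median scaling, cyclic loess, no background correction, an offset of 50, the authors' values, 2 other filters, a fit to 4 arrays, a fit without the sex term, no intensity trend, and each array left out. An array left out of a fit had still entered the normalisation and the choice of probes.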

Additional observations from a re-analysis of the deposited data

Results flagged for a closer look

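The difference between BDIV and BDIX had opposite signs in the male and the female pair for 1781 probes with a gene name that were detected on at least 2 BDIV or BDIX arrays. The 6 genes below are those whose smaller difference of the 2 pairs was largest. Whether the pairs differ was not tested, since each strain and sex had 1 pool.

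Igfbp3, which binds insulin-like growth factors, read 8.04 and 8.09 (log2) in the BDIV male and female pools, against 9.35 and 6.36 in the BDIX male and female pools, so BDIV minus BDIX was -1.32 in males and 1.74 in females. Postn, a matrix protein of fibroblasts, differed by -1.31 in males and 1.33 in females. Slpi, a protease inhibitor of epithelia, differed by -1.70 in males and 1.22 in females. Pcdh20, a protocadherin, differed by -2.32 in males and 0.96 in females. Septin1 differed by -0.98 and Siva1 by -0.82 in males, with 0.87 and 0.84 in females. In all 6 genes the BDIX male pool was the highest and the BDIX female pool the lowest of these 4, and the BDIV pools lay between them.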

How the results depend on the processing

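The 4 counts of the comparison were recomputed under 16 alternatives. Without 1 array the calls ranged from 601 (without the BDIV female) to 4321 (without the BDIX male), those higher from 348 to 2138, those lower from 253 to 2183 and those over 2-fold from 601 to 2284. Without the BDIV male there were 1532 calls, of which 828 were higher and 704 lower. Median scaling gave 2157 higher, and no background correction gave 924 over 2-fold. Under the other alternatives the counts stayed within 1.5 times the reported ones, with calls from 2139 without the filter on dim probes to 3438 under cyclic loess. Of 48 gene lists with 5 or more calls, the calls were fewer by over 1.5 times for 46 without the BDIV female, 31 without the BDIV male, 21 without the filter and 14 on the authors' values, and more by over 1.5 times for 8 under median scaling and 13 without the BDIX male. The male and female pools pair the strains by sex, and without this pairing as a block 3084 probes were called. That change leaves each difference as it was. The other filters, the fit to 4 arrays, no intensity trend and either congenic array left out do so too. Under these alternatives no sign could turn. Of the 2860 calls 430 held under all 16 alternatives, and none turned its sign.

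Of the 333 genes named by rule, 5 turned their sign with 1 array left out, and none of these 5 was called with all 6 arrays. Tnnc2 ranged from -0.056 (without the BDIV female) to 0.49, and Myh7 from -0.61 to 0.18 (without the BDIV female). Cfd ranged from -1.29 (without the BDIX female) to 0.40 (without the BDIX male), with 0.068 without the BDIV male. Without the BDIX male, Cd6 differed by 0.026 and Epcam by 0.59, against -0.77 and -2.95 without the BDIX female. Without the BDIX female Cfd and Epcam passed the threshold (limma, adjusted p of 0.0031 and 0.00073). The causes were not tested. For dim probes, signal close to background limits what could be measured.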
